A study of Mus musculus with 18 samples.

Results

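The genes described here serve the unfolded protein response and the protein-folding work of the endoplasmic reticulum (ER). They come from a named list of 32 mouse genes: the stress sensors and their transcription factors, ER chaperones, disulfide isomerases, degradation and translocation components and the KDEL receptors. By symbol, 31 of the 32 were measured by a probe set naming that gene alone, among 19938 genes measured so on the arrays. Kdelr2 was not analysed here. Kdelr3 entered the list because it was lower in Stat3-deleted epithelial cells, so that difference is a description and carries no test.

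RNA was hybridised to 18 Affymetrix arrays, 3 in each of 6 groups of mouse samples. Tumours with Stat3 deleted came from male and from female Stat3deltaIEC APCmin/+ mice, and control tumours came from male and from female Stat3flox/flox APCmin/+ mice. Intestinal epithelial cells came from mice labelled STAT3-/- and from mice labelled STAT3fl/fl, and the labels give these cells no sex, age or Apc genotype. In every deleted group Stat3 is removed by a Cre recombinase driven by the Villin promoter, which acts in the intestinal epithelium, so blood vessels, fibroblasts and immune cells keep the gene. All tumour donors, controls included, carry the APCmin mutation, which activates Wnt signalling. The design text places APCmin tumours mainly in the small intestine, whereas the sample descriptions call every sample a colorectal tumour raised with azoxymethane and dextran sulfate, the epithelial cells included. No label says that the 3 samples of a group came from separate animals, so p-values reflect only how far these samples differ within a group, which may be technical.

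Secreted and membrane proteins enter the ER through the translocon, fold there with chaperones and disulfide isomerases, and are sent for degradation when they fail. When unfolded proteins build up, the membrane sensors IRE1, PERK and ATF6 respond: IRE1 splices the mRNA of XBP1, PERK slows translation while favouring ATF4, and ATF6 is cut in the Golgi into a transcription factor. XBP1 and ATF6 drive chaperone and degradation genes, and ATF4 drives CHOP and other stress genes. In the intestine, secretory Paneth and goblet cells depend on this pathway, and so do the plasma cells of the gut wall. An array signal for Xbp1 does not separate the spliced from the unspliced mRNA, and cleavage of ATF6 leaves its mRNA unchanged.

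Some of the members' promoters carry the letters through which this response is known to act, and they are shown because the results below are set beside them. In RefSeq's sequences for build GRCm38.p6, 28 of the 31 measured members had a promoter entry covering 250 bases before to 50 bases after the start. Both strands were searched for the ER stress response element, CCAAT and CCACG with any 9 bases between them, known to be bound by NF-Y and ATF6. It occurred in 8 of the 28 member promoters, or 28.6%, and in 39 of all 32851 promoters, or 0.119%. The lines below give those 8 promoters' matches with 8 bases on each side, from 5′ to 3′ on the strand of the gene, and capitals mark the fixed letters of the element or of its reverse complement. Hsp90b1 has a pair of matches.
Hspa5 (chr2:34772017-34772051, plus strand): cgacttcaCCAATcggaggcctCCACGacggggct
Hsp90b1, first match (chr10:86705630-86705664, minus strand): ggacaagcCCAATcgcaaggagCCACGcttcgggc
Hsp90b1, second match (chr10:86705525-86705559, minus strand): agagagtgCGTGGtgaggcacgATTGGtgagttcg
Pdia6 (chr12:17266483-17266517, plus strand): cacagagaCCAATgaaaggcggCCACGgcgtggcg
Dnajc3 (chr14:118937819-118937853, plus strand): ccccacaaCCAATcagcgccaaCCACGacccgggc
Canx (chr11:50325792-50325826, minus strand): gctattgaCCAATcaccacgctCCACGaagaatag
Calr (chr8:84847067-84847101, minus strand): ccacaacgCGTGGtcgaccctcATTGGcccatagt
Creld2 (chr15:88819512-88819546, plus strand): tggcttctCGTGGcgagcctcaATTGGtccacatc
Syvn1 (chr19:6046524-6046558, plus strand): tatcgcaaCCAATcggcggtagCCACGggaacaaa

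The shorter ER stress response element II, ATTGG and CCACG with any 1 base between them, occurred in the promoters of Herpud1 and Dnajb11, and in 12 of all 32851 promoters, or 0.0365%. The unfolded protein response element TGACGTGG, known as an XBP1 and ATF6 site, occurred only in Kdelr3 among the member promoters, and in 222 promoters, or 0.676%, overall. Its reverse complement contains the CCACG part of the stress response element. The element TGATGCAA, through which ATF4 acts with C/EBP proteins, occurred only in Herpud1 among the members, and in 294 promoters, or 0.895%, overall. These 4 matches are shown in the same way, since the values of their genes are given below. Of all matches shown, only that of Dnajb11 lies after the start, at 7 to 17 bases from it. A match is a run of letters in a fixed window and says nothing of binding.
Herpud1, element II (chr8:94386369-94386395, plus strand): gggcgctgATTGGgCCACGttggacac
Herpud1, ATF4 element (chr8:94386309-94386332, plus strand): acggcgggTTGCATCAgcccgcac
Dnajb11 (chr16:22857844-22857870, plus strand): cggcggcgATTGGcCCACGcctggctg
Kdelr3 (chr15:79516370-79516393, plus strand): ccgccccgCCACGTCAccgcgcgg

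Values are the deposited log2 expression values, and a difference of 1 is a change of 2-fold. Differences are given ± SE with p-values from limma, adjusted by Benjamini-Hochberg over the 17316 genes tested, and a gene passed when its adjusted p was under 0.05. Array medians lay between 5.88 and 6.07, and arrays of the same group correlated at 0.954 to 0.9924. Stat3 itself averaged 8.03 ± 0.25 in Stat3-deleted and 10.11 ± 0.04 in control male tumours, 8.29 ± 0.20 in deleted and 10.15 ± 0.17 in control female tumours, and 7.87 ± 0.13 in deleted and 9.83 ± 0.08 in control epithelial cells (SD, n = 3 each). Whether its probes lie in the deleted exons was not determined here. All 31 members passed the filter on low values, and none had a value below its own array's 25th percentile.

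**Figure D1:**
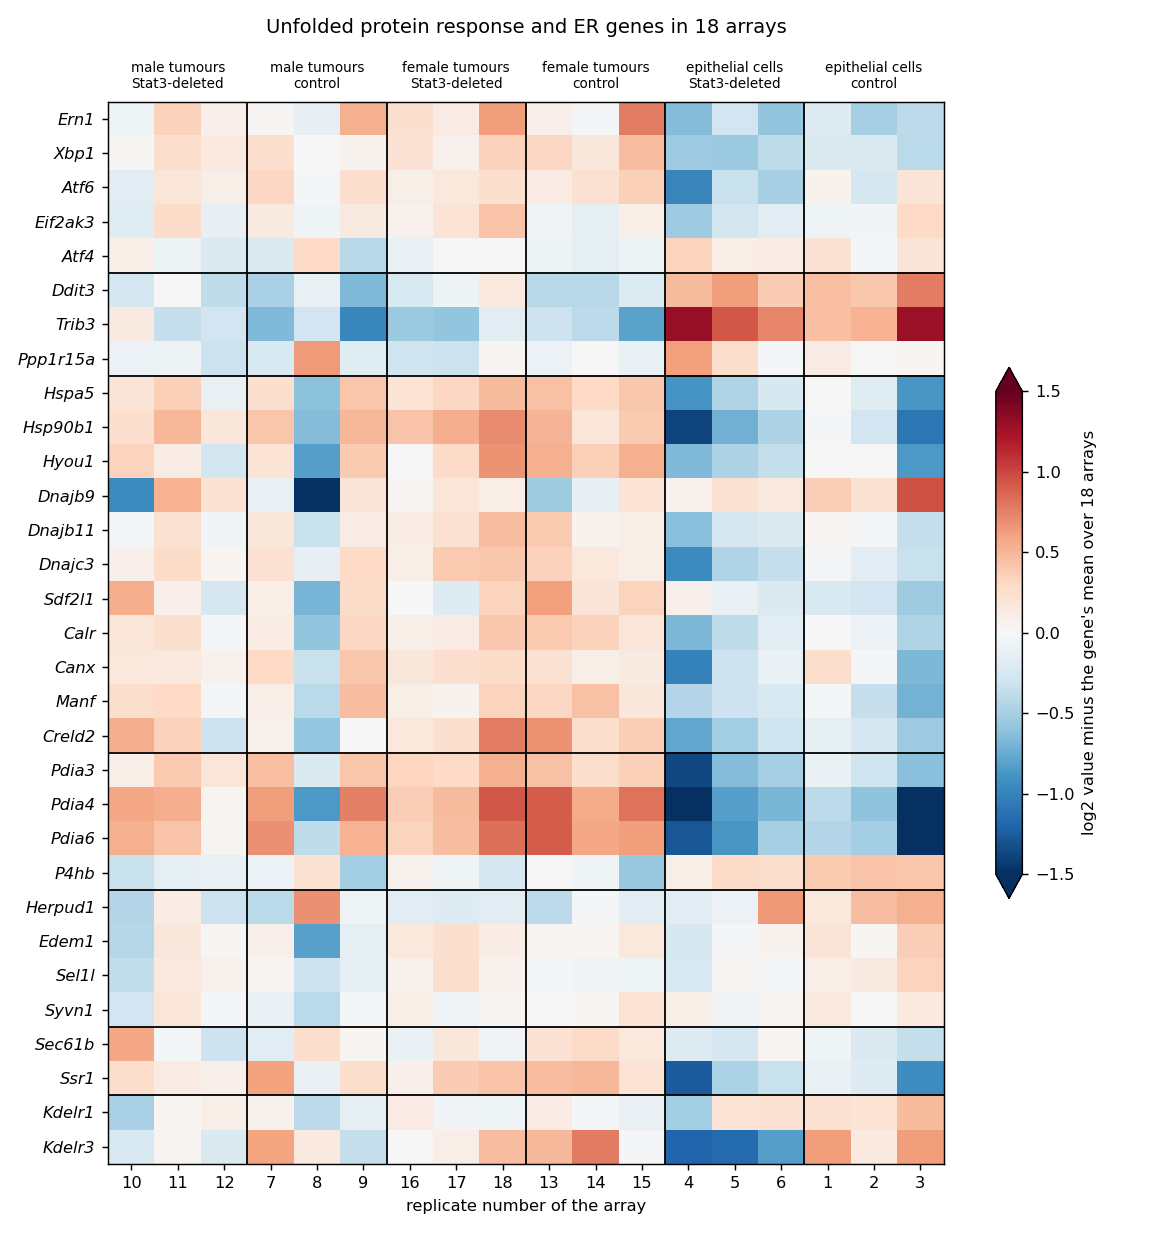
Level of the 31 measured members on each of the 18 arrays, as the log2 expression value minus the gene's mean over the 18 arrays. Rows are ordered by role and columns by group. Most chaperone and isomerase rows are higher on most tumour arrays than on most epithelial arrays, while Ddit3, Trib3 and the isomerase P4hb run the other way.

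The members differed most between tumours and epithelial cells. In Stat3-deleted tumours, compared with Stat3-deleted epithelial cells, 18 of the 31 members were higher and 3 were lower, or 58.1% and 9.68% of them. Over all genes tested, 66.5% passed this comparison, 30.3% higher and 36.2% lower. Without Kdelr3, chosen on some of these arrays, the count was 17 higher and 3 lower of 30. The median difference was 0.53 over the members and -0.07 over all genes. In control tumours, compared with control epithelial cells, 9 members were higher and 4 were lower, or 29.0% and 12.9%. There 65.7% of all genes passed, 30.4% higher and 35.3% lower, so the share of members that were higher was near that of all genes. The median difference was 0.28 over the members and -0.08 over all genes. In a tumour piece, fewer cells of a type and less RNA per cell cannot be told apart.

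In the deleted comparison all tumours were above all epithelial cells for 16 members and below them for 3, where 27.1% and 28.8% of all genes did so. Kdelr3, chosen on some of these arrays, was among the 16. In the control comparison the counts were 4 above and 6 below, where 24.8% and 26.3% of all genes did so.

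These signs depend on how arrays are put on a common level. Over the genes tested, array medians lay between 6.59 and 6.71 in epithelial samples and between 6.81 and 7.03 in tumours. When these medians were made equal, the median of all genes moved to -0.32 in the Stat3-deleted and -0.42 in the control comparison. The calls then became 12 higher and 7 lower members in the deleted comparison, and 2 higher and 12 lower in the control comparison. Calls over all genes also leaned to the lower side: 3758 higher and 8054 lower in the deleted, and 3444 higher and 8876 lower in the control comparison. Relative to the median of all genes, which a shift of whole arrays leaves fixed, the members' median stood 0.60 higher in the deleted and 0.36 higher in the control comparison. After quantile normalisation these values were 0.51 and 0.33. With equal array medians, the calls of Eif2ak3, Calr, Canx, Dnajb11, Manf and Hyou1 were lost in the deleted comparison. Those of Xbp1, Ern1, Hspa5, Hsp90b1, Pdia3, Manf and Ssr1 were lost in the control comparison. Atf4, Herpud1, Syvn1 and P4hb passed as lower in both with equal array medians. Pdia4 and Pdia6 stayed higher, and Ddit3 and Trib3 lower, in both comparisons.

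Of the members that passed, 11 passed in both comparisons, each in the same direction: 52.4% of the calls in the Stat3-deleted and 84.6% of those in the control comparison, which share no arrays. Over all genes, 9400 passed in both and 9397 of them in the same direction, which was 81.6% of the calls in the deleted and 82.7% of those in the control comparison. The 9 that were higher in both were Xbp1, Ern1, Hspa5, Hsp90b1, Pdia3, Pdia4, Pdia6, Manf and Ssr1, and the 2 that were lower in both were Ddit3 and Trib3. A further 10, Kdelr3 among them, passed in the deleted comparison alone and 2, P4hb and Dnajb9, in the control comparison alone. The difference between the comparisons was itself tested, and no member passed it, where 0.0116% of all genes did. Of the 31 members, Atf6, Eif2ak3 and Kdelr3, the last chosen on these arrays, had an unadjusted p under 0.05. Over all genes, 1624 of the 17316 tested had such a p.

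**Figure D2:**
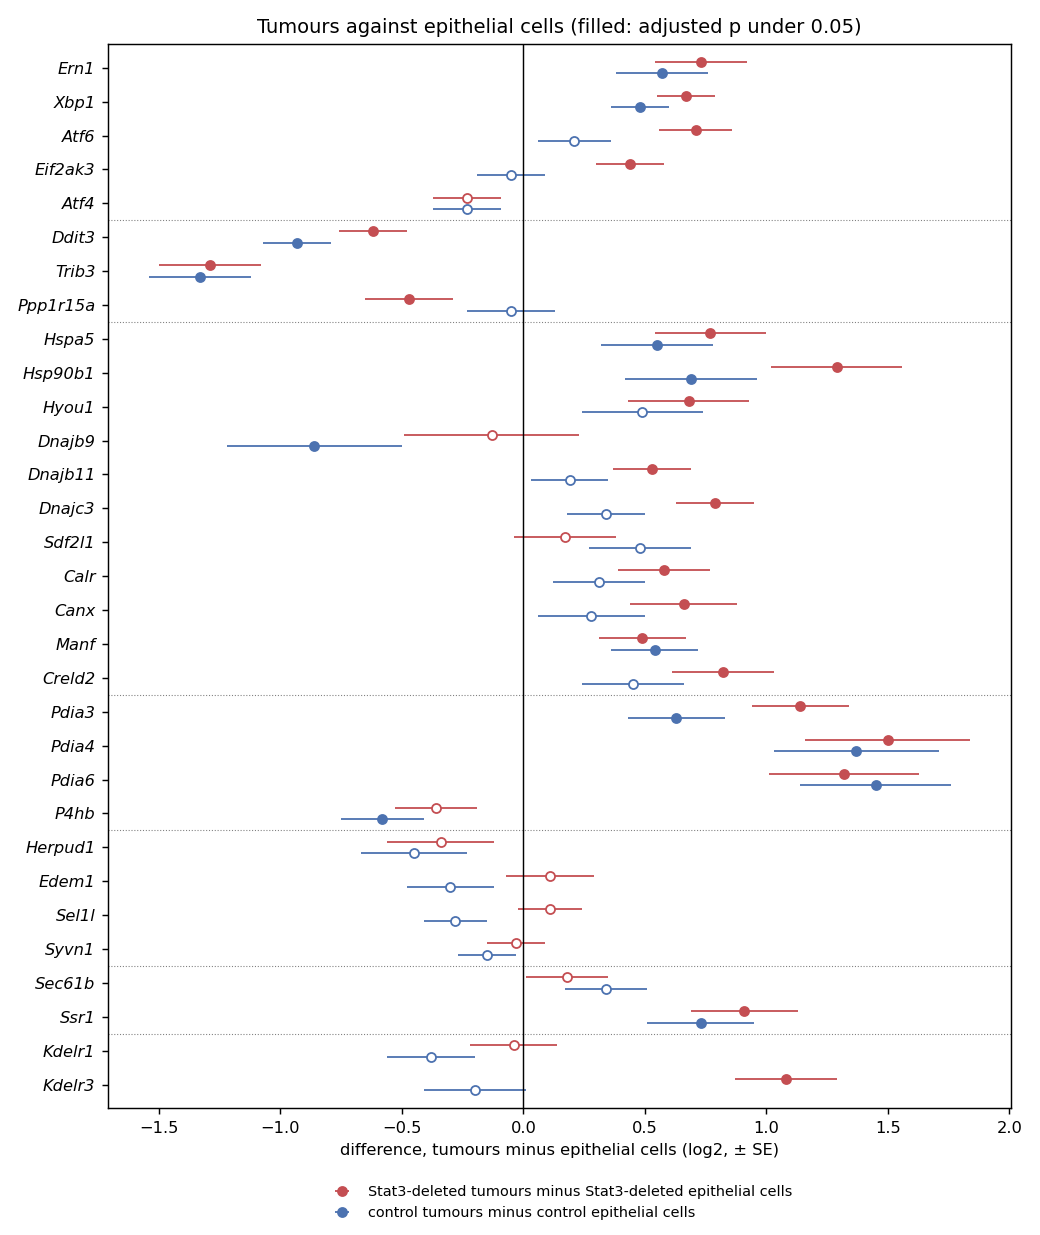
Difference of each member between tumours and epithelial cells on the log2 scale, with its standard error, for the Stat3-deleted and the control comparison. Positive values are higher in tumours; Pdia4 and Pdia6 lie farthest to the right in the control comparison and Trib3 farthest to the left in both.

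Among the sensors and their transcription factors, 4 of 5 rose in Stat3-deleted and 2 of 5 in control tumours. Of all genes, 30.3% and 30.4% did so. Xbp1 lay between 10.45 and 10.78 in the 6 Stat3-deleted tumours with a median of 10.62, against 9.89, 9.88 and 10.05 in Stat3-deleted epithelial cells. In the controls it lay between 10.43 and 10.90 with a median of 10.64 in tumours, against 10.22, 10.22 and 10.03 in epithelial cells. All tumours were above all epithelial cells of their genotype, and the differences were 0.67 ± 0.12 (adjusted p = 0.000283) and 0.48 ± 0.12 (adjusted p = 0.00306). With equal array medians the control difference was 0.14, with an adjusted p of 0.289.

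Ern1, which encodes IRE1, was 0.73 ± 0.19 higher in the deleted comparison (adjusted p = 0.00341) and 0.57 ± 0.19 higher in the control comparison (adjusted p = 0.0166). Its control call was lost without epithelial replicate 2 or 3. Atf6 lay between 8.21 and 8.60 in the Stat3-deleted tumours, against 7.37, 8.03 and 7.86 in the epithelial cells of that genotype, and the groups did not overlap. Its differences were 0.71 ± 0.15 in the deleted (adjusted p = 0.000938) and 0.21 ± 0.15 in the control comparison (adjusted p = 0.232). Eif2ak3, which encodes PERK, differed by 0.44 ± 0.14 in the deleted comparison (adjusted p = 0.0127), with overlapping arrays and a call lost without epithelial replicate 4. In the control comparison it differed by -0.05 ± 0.14. Atf4 passed in neither comparison, at -0.23 ± 0.14 in each, and PERK is known to act on it through translation.

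Trib3 and Ddit3, known as outputs of the PERK branch, were lower in both comparisons. Trib3, a pseudokinase known as an ATF4 and CHOP target, lay between 7.0 and 7.73 in the Stat3-deleted tumours with a median of 7.28, against 8.90, 8.53 and 8.33 in the epithelial cells. In controls it lay between 6.61 and 7.31 with a median of 7.06 in tumours, against 8.05, 8.11 and 8.89 in epithelial cells. No tumour reached any epithelial sample: it was 2.45-fold lower in the deleted (-1.29 ± 0.21, adjusted p = 0.000131) and 2.52-fold lower in the control comparison (-1.33 ± 0.21, adjusted p = 8.55e-05).

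Ddit3, which encodes the transcription factor CHOP, lay between 6.69 and 7.21 in the Stat3-deleted tumours with a median of 6.92, against 7.54, 7.69 and 7.45 in the epithelial cells. In controls it lay between 6.40 and 6.95 with a median of 6.65 in tumours, against 7.52, 7.47 and 7.84 in epithelial cells. Again the groups did not overlap, with differences of -0.62 ± 0.14 (adjusted p = 0.00155) and -0.93 ± 0.14 (adjusted p = 6.76e-05). Ppp1r15a, a phosphatase subunit that reverses the PERK signal, differed by -0.47 ± 0.18 in the deleted comparison (adjusted p = 0.029) and by -0.05 ± 0.18 in the control comparison. Its call was lost without epithelial replicate 4 or 5 or without any of 3 tumours.

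The epithelial cells had been isolated, and genes that rise quickly on handling of tissue, such as Fos, Fosb, Jun and Junb, were on average lower in tumours too. The mean level of the 9 such genes measured, Atf3 of the ATF4 branch among them, lay between 7.73 and 8.23 over all tumours, against 8.45 to 9.03 over all epithelial samples. Of these genes, 6 of 9 passed as lower in the deleted and 4 of 9 in the control comparison, or 66.7% and 44.4%, against 36.2% and 35.3% of all genes. Their part in the lower Ddit3 and Trib3 was not tested.

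**Figure D3:**
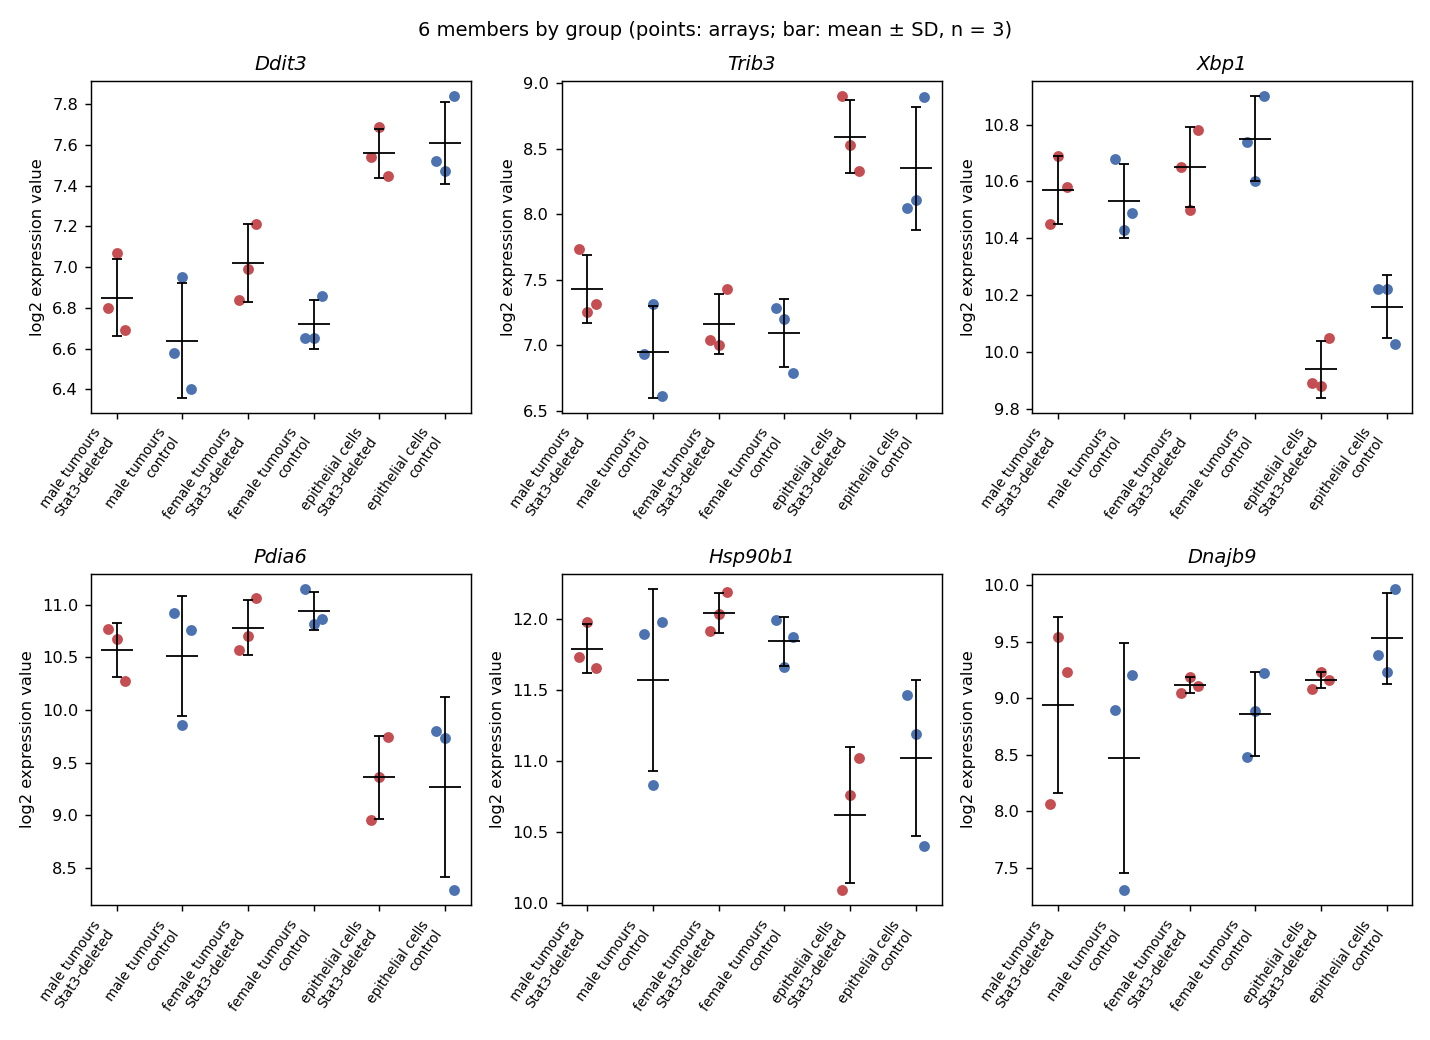
Log2 expression values of 6 members in the 6 groups, with points for arrays and bars for the mean ± SD (n = 3). Trib3 and Ddit3 are lower in all tumours than in all epithelial samples; Pdia6 and Hsp90b1 are lowest in control male tumour replicate 8 among tumours, at 9.86 and 10.83, and Dnajb9 has its lowest value there, at 7.30.

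Chaperones and their partners made up the largest role, with 11 members. In the deleted comparison 9 of them rose and none fell, where 30.3% of all genes rose and 36.2% fell. In the control comparison 3 rose and 1 fell, where 30.4% of all genes rose and 35.3% fell. The share that rose in the control comparison was near that of all genes. Hsp90b1, the ER member of the HSP90 family, lay between 11.65 and 12.19 in the Stat3-deleted tumours with a median of 11.94, against 10.09, 10.76 and 11.02 in the epithelial cells. In controls it lay between 10.83 and 11.99 with a median of 11.88 in tumours, against 11.46, 11.19 and 10.40 in epithelial cells. The deleted groups did not overlap and the control groups did, with differences of 1.29 ± 0.27 (adjusted p = 0.000722) and 0.69 ± 0.27 (adjusted p = 0.0342). The control call was lost without control epithelial replicate 3 or without any of 4 control tumours.

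Hspa5, the ER chaperone BiP that holds the sensors inactive, showed a similar arrangement. It lay between 11.22 and 11.81 in the Stat3-deleted tumours, against 10.45, 10.88 and 11.09 in the epithelial cells, a difference of 0.77 ± 0.23 (adjusted p = 0.00784). In controls it lay between 10.72 and 11.77, against 11.33, 11.15 and 10.46 in epithelial cells, a difference of 0.55 ± 0.23 (adjusted p = 0.0445). The deleted call was lost without epithelial replicate 4, and the control call was lost without any of 12 of the 18 arrays.

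Dnajc3, a BiP co-chaperone that also restrains PERK, lay between 10.20 and 10.58 in the Stat3-deleted tumours, all above the 9.22, 9.73 and 9.83 of the epithelial cells (0.79 ± 0.16, adjusted p = 0.000474). Creld2, a secreted ER stress gene, rose by 0.82 ± 0.21 (adjusted p = 0.00293), with overlapping arrays. Both calls held when any single array was left out. The lectin chaperones Calr and Canx differed by 0.58 ± 0.19 and 0.66 ± 0.22, the co-chaperone Dnajb11 by 0.53 ± 0.16, the BiP exchange factor Hyou1 by 0.68 ± 0.25 and the secreted factor Manf by 0.49 ± 0.18. These 5 passed in the deleted comparison, and each lost its call without epithelial replicate 4. In the control comparison only Manf of the 7 passed, at 0.54 ± 0.18 (adjusted p = 0.0157).

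Dnajb9, a BiP co-chaperone that acts on IRE1 and in degradation, did not follow them. It was 0.86 ± 0.36 lower in the control comparison (-0.86, adjusted p = 0.0448), where 1 tumour stood at 7.30 and the other 5 between 8.48 and 9.22. In the deleted comparison it differed by -0.13 ± 0.36, and its control call was lost without any of 12 of the 18 arrays. Sdf2l1, a BiP partner, passed in neither comparison, at 0.17 ± 0.21 in the deleted and 0.48 ± 0.21 in the control comparison.

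Isomerases, which form and rearrange disulfide bonds, held the largest increases among the members. Pdia6 lay between 10.28 and 11.06 in the Stat3-deleted tumours with a median of 10.69, against 8.96, 9.36 and 9.74 in the epithelial cells. In controls it lay between 9.86 and 11.15 with a median of 10.84 in tumours, against 9.80, 9.73 and 8.29 in epithelial cells. No tumour overlapped the epithelial cells of its genotype, and Pdia6 was 2.50-fold higher in the deleted (1.32 ± 0.31, adjusted p = 0.00152) and 2.74-fold higher in the control comparison (1.45 ± 0.31, adjusted p = 0.0008).

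Pdia4 rose by 1.5 ± 0.34 in the deleted (adjusted p = 0.00124) and 1.37 ± 0.34 in the control comparison (adjusted p = 0.00247). A dimmer second probe set of Pdia4 gave 1.32 and 0.79. Pdia3, which works with calreticulin and calnexin, rose by 1.14 ± 0.20 (adjusted p = 0.00019) and 0.63 ± 0.20 (adjusted p = 0.0111). P4hb, the founding protein disulfide isomerase, went the other way: it lay between 11.80 and 12.60 in control tumours, against 12.76, 12.80 and 12.79 in control epithelial cells. It was lower in the control comparison (-0.58 ± 0.17, adjusted p = 0.00639). In the deleted comparison its value was -0.36 ± 0.17 (adjusted p = 0.0674).

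The 4 members of ER-associated degradation, which returns failed proteins to the cytosol, passed in neither comparison. Herpud1, a scaffold of the degradation complex, differed by -0.34 ± 0.22 in the deleted and -0.45 ± 0.22 in the control comparison. Sel1l and Syvn1, the adaptor and ubiquitin ligase at its core, differed by 0.11 ± 0.13 and -0.03 ± 0.12 in the deleted comparison, and by -0.28 ± 0.13 and -0.15 ± 0.12 in the control comparison. Edem1, a lectin that picks out glycoproteins, differed by 0.11 ± 0.18 and -0.30 ± 0.18. With equal array medians, all 4 passed as lower in the control comparison, where 8876 of all genes did so.

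Of the translocation members, Ssr1, a subunit of the complex beside the translocon, rose by 0.91 ± 0.22 in the deleted (adjusted p = 0.00192) and 0.73 ± 0.22 in the control comparison (adjusted p = 0.00853). Sec61b, a subunit of the channel itself, differed by 0.18 ± 0.17 and 0.34 ± 0.17 and passed in neither. Its 3 probe sets gave values between 0.18 and 0.39 in the deleted and between 0.28 and 0.37 in the control comparison.

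The members with the stress response element were set beside those without it. In the deleted comparison 7 of the 8 carriers were higher, all but Syvn1, with a median difference of 0.78. Of the 20 other members with a promoter entry, 8 were higher and 3 lower, with a median of 0.14. Kdelr3, chosen on some of these arrays, was among those 8. Without epithelial replicate 4 these counts were 4 of 8 carriers higher, against 6 higher and 2 lower of the others. With equal array medians 5 carriers were higher and 1 lower, against 6 higher and 6 lower. In the control comparison 3 of the 8 carriers were higher, with a median of 0.39. Of the 20 others, 5 were higher and 4 lower, with a median of -0.12. Without control epithelial replicate 3, 1 carrier was higher, against 2 higher and 3 lower of the others. Without tumour replicate 8, 6 carriers were higher, against 6 higher and 5 lower of the others. With equal array medians the control counts were 1 carrier higher and 1 lower, against 1 higher and 11 lower of the others. Herpud1 and Dnajb11, which carry element II, are among the 20 others. Counted as carriers, they made 8 of 10 higher in the deleted comparison, with a median of 0.71. Of the 18 others, 7 were higher and 3 lower, with a median of 0.14. In the control comparison 3 of the 10 were higher, with a median of 0.32. Of the 18, 5 were higher and 4 lower, with a median of -0.12. Over all genes, 30.3% were higher in the deleted and 30.4% in the control comparison with all arrays as deposited. Without replicate 4, 4386 of all genes were higher in the deleted comparison. In the control comparison 4517 were higher without replicate 3 and 5680 without replicate 8. With equal array medians 3758 were higher and 8054 lower in the deleted comparison, and 3444 and 8876 in the control comparison. The 7 carriers that were higher in the deleted comparison are all chaperones or isomerases. The others also hold sensors, outputs of the PERK branch, degradation genes and KDEL receptors, so the split by element follows role in part. Element and role were not separated. The members were chosen in part for known regulation, and the difference between carriers and others was not tested.

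Individual arrays set part of this pattern. Over the 15 chaperone and isomerase members, the mean level was 9.91 in control male tumour replicate 8 and 10.42 to 10.91 in the other tumours. It was 9.69 in Stat3-deleted epithelial replicate 4 and 9.83 in control epithelial replicate 3, against 10.06 to 10.42 in the other epithelial samples. Without epithelial replicate 4 the deleted comparison called 13 members in place of 21, and 9516 of all genes in place of 11514. The control comparison called 6 members in place of 13 without epithelial replicate 3, and 19 without tumour replicate 8. Of all genes, in place of 11373, it called 9023 without replicate 3 and 12270 without replicate 8. With these 3 arrays left out together, 18 members were higher and 3 lower in the deleted comparison, and 12 higher and 5 lower in the control comparison. Of all genes, 4957 were then higher and 5529 lower in the deleted comparison, and 5423 and 5748 in the control comparison. With any single array left out, 13 of the 21 deleted calls and 6 of the 13 control calls held throughout, Kdelr3 counted among the 13. The 6 were Xbp1, Ddit3, Trib3, Pdia4, Pdia6 and P4hb. The control calls of Pdia3, Manf and Ssr1 were lost without epithelial replicate 3. Control tumour replicates 9 and 15 stood apart in their epithelium, with mean enterocyte marker levels of 8.79 and 8.46, against 10.39 to 11.78 in the other tumours. Leaving out both gave 6 higher and 4 lower members in the control comparison, and 4795 higher and 5182 lower of all genes.

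**Figure D4:**
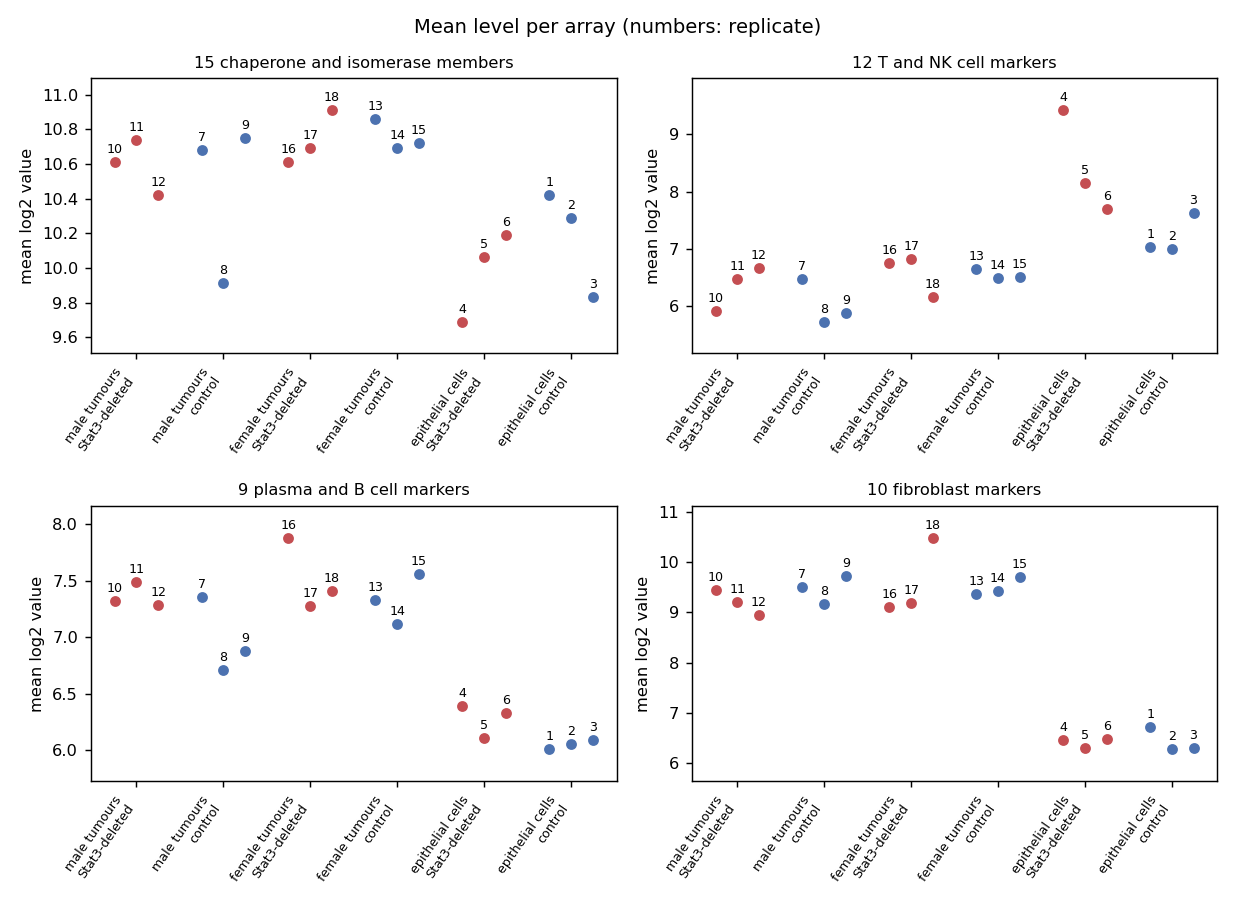
Mean log2 level of the 15 chaperone and isomerase members and of marker lists on each array, by group. Tumour replicate 8 at 9.91 and epithelial replicates 4 and 3 at 9.69 and 9.83 lie lowest for the members, and replicate 4 lies highest for T and NK cell markers at 9.42.

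The cell makeup of the samples moved with the tissue comparison. The mean level of plasma and B cell markers, which include the secretory plasma cells, lay between 6.71 and 7.88 in tumours, against 6.01 to 6.39 in epithelial samples. Of its 8 genes tested, 6 passed as higher in each comparison, and Jchain was higher by 4.14 in the deleted and 4.31 in the control comparison, Mzb1 by 2.24 and 1.64, and Pou2af1 by 1.08 and 1.0. Tnfrsf17 differed by -0.03 and -0.01. Fibroblast markers lay between 8.95 and 10.48 in tumours, against 6.28 to 6.73 in epithelial samples, and all 10 were higher in both comparisons. Enterocyte markers were lower in tumours, at 8.46 to 11.78, against 12.41 to 12.84, while general epithelial markers overlapped, at 10.78 to 11.60 against 11.18 to 11.43. Paneth markers lay between 8.82 and 10.28 in tumours, against 8.30 to 9.61. Goblet markers lay between 9.19 and 10.71 in tumours, against 10.57 to 10.72, and 2 of 9 passed as higher and 2 as lower in the deleted comparison, 2 as higher and 5 as lower in the control comparison. T and NK cell markers lay between 5.73 and 6.83 in tumours, against 7.0 to 9.42 in epithelial samples, and 12 of 12 passed as lower in the deleted and 6 of 12 in the control comparison. The part of these cells in the members' levels was not tested.

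In epithelial cells, none of the 30 members other than Kdelr3 passed for Stat3 deletion, and 4 had an unadjusted p under 0.05. Such a p was reached by 1178 of the 17316 genes tested. Over all genes 0.0231% passed, Kdelr3 among them, for which the value is given only as a description. KDEL receptors bind escaped ER residents in the Golgi and return them. Kdelr3 had 5.71, 5.75 and 6.07 in Stat3-deleted epithelial cells, against 7.53, 7.05 and 7.53 in control epithelial cells. Every deleted sample was below every control sample, by -1.52 on average. Kdelr1 had 8.78, 9.5 and 9.52, against 9.52, 9.49 and 9.77, a difference of -0.33 ± 0.20 (adjusted p = 0.744), with overlapping arrays.

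In tumours Kdelr3 did not separate by genotype. It had 6.67, 6.94 and 6.69 in Stat3-deleted and 7.49, 7.05 and 6.54 in control male tumours, and 6.90, 7.0 and 7.36 in Stat3-deleted and 7.39, 7.68 and 6.87 in control female tumours. The differences were -0.26 ± 0.24 in males (adjusted p = 0.930) and -0.22 ± 0.24 in females (adjusted p = 0.997). All 6 Stat3-deleted tumours stood above the 3 Stat3-deleted epithelial samples, by 1.08 on average, a value that shares the arrays on which Kdelr3 was chosen. In controls the tumours differed from epithelial cells by -0.20 ± 0.21 (adjusted p = 0.407). The deletion effect in tumours minus that in epithelial cells was 1.28, which rests on the same arrays.

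**Figure D5:**
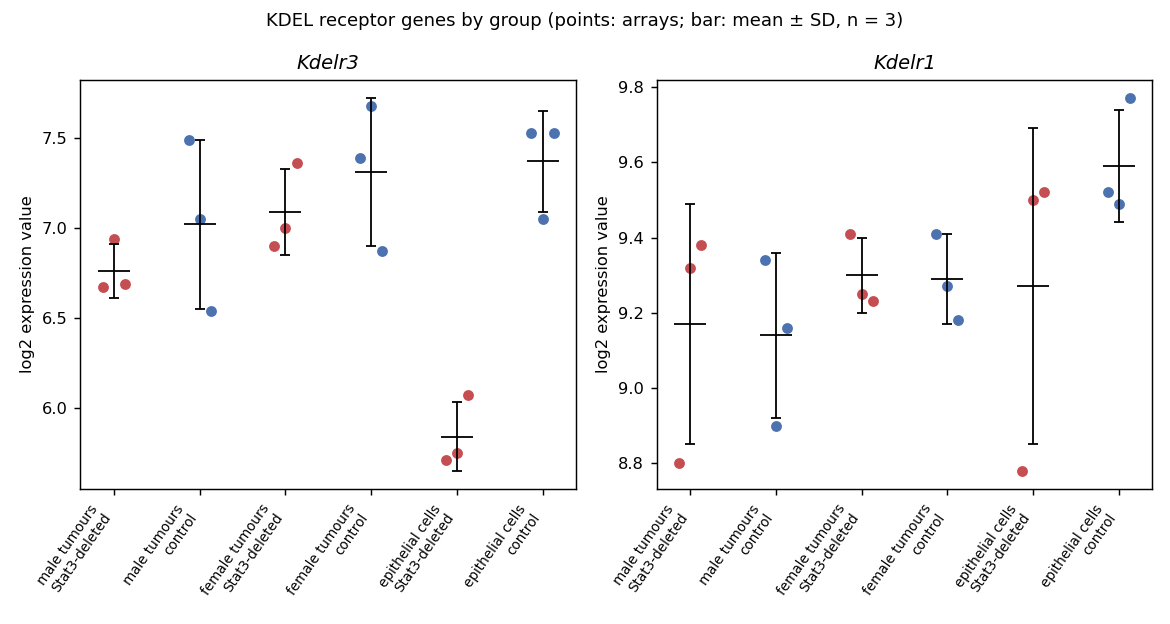
Log2 expression values of Kdelr3 and Kdelr1 in the 6 groups, with points for arrays and bars for the mean ± SD (n = 3). The 3 Stat3-deleted epithelial samples of Kdelr3, at 5.71 to 6.07, lie below all 15 other arrays, which start at 6.54, while the Kdelr1 groups overlap.

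The other 30 members had a median difference of -0.21 in epithelial cells, against 0.00 over all genes, and 23 were negative. After quantile normalisation the median was -0.06, with 19 negative and 1 at an unadjusted p under 0.05, where 1416 of 17316 genes were. For 6 of the 30, Atf6, Eif2ak3, P4hb, Dnajb9, Dnajc3 and Sel1l, all 3 deleted samples lay below all 3 control samples, where 7.81% of all genes did so. Sdf2l1 alone of them lay above in the same way, where 6.3% of all genes did so. Atf6 had 7.37, 8.03 and 7.86 in deleted cells, against 8.42, 8.10 and 8.56 in control cells, a difference of -0.61 ± 0.18 with an adjusted p of 0.649. Eif2ak3 had 8.14, 8.42 and 8.53, against 8.63, 8.65 and 8.99, a difference of -0.40 ± 0.17 with an adjusted p of 0.722.

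Replicate 4 of the deleted epithelial cells held the lowest value of all 18 arrays for 14 of the 31 members. Without it the median of the 30 was -0.09. The same array had the highest level of T and NK cell markers, such as Cd3e, Cd3g and Cd3d. Their mean was 9.42, 8.15 and 7.69 in the deleted epithelial cells, against 7.04, 7.0 and 7.62 in the control epithelial cells. The part of these cells in the lower values was not tested.

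In tumours, no member passed for Stat3 deletion. In males the differences ran between -0.29 for Herpud1 and 0.48 for Trib3, with a median of 0.06, and the smallest adjusted p was 0.731; 0.231% of all genes passed. In females they ran between -0.33 for Sdf2l1 and 0.30 for Ddit3, with a median of 0.01 and a smallest adjusted p of 0.997; 0.104% of all genes passed. No member had an unadjusted p under 0.05 in either sex. Over both sexes 0.71% of all genes passed and the member with the smallest unadjusted p was Ddit3, at 0.25 ± 0.12 (adjusted p = 0.409). The difference of the effect between sexes passed for 0 of all genes and 0 members, and no member had an unadjusted p under 0.05 there. Without control tumour replicate 8 the male median was -0.09.

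Further genes of the pathway were counted over whole lists, and those named passed with the smallest p in their list. The shares of all genes that passed were 30.3% higher and 36.2% lower in the deleted and 30.4% and 35.3% in the control comparison. They apply to each count except those with equal array medians or an array left out. With equal array medians, 3758 of all genes were higher and 8054 lower in the deleted comparison, and 3444 and 8876 in the control comparison. Without control epithelial replicate 3, 4517 of all genes were higher in the control comparison. Of 27 tested genes of the translocon, signal recognition particle and signal peptidase, 26 rose and none fell in the deleted comparison, and 21 rose and none fell in the control comparison, with medians of 0.75 and 0.65. Sec11c, a signal peptidase subunit, rose by 1.36 and 1.38, and in the deleted comparison Sec63, a channel partner, rose by 1.29. With equal array medians 15 and 9 of these genes rose and none fell, and without control epithelial replicate 3 the control count was 11.

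Of 24 other folding genes, 18 rose and 1 fell in the deleted comparison, and 13 rose and 2 fell in the control comparison, with medians of 0.81 and 0.66. The isomerase Txndc5 rose by 1.44 and 1.37 and the prolyl isomerase Fkbp7 by 1.52 and 1.66. Crtap, part of the complex that modifies collagen prolines, rose by 1.76 and 2.15, beside the fibroblast markers above. Of 18 further degradation genes, 9 rose and 1 fell in the deleted comparison, and 5 rose and 2 fell in the control comparison, with medians of 0.32 and 0.11. The 5 were 27.8% of the list, near the share of all genes. The ubiquitin-conjugating enzyme Ube2g2 rose by 0.76 and 0.85 and the segregase Vcp by 0.69 and 0.62. With equal array medians the control count for degradation was 1 higher and 5 lower.

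Of 33 further genes of the ATF4 branch, which include amino acid enzymes and transporters, tRNA synthetases and kinases of the same signal, 21 rose and 3 fell in the deleted comparison, and 17 rose and 5 fell in the control comparison, with medians of 0.85 and 0.62. The amino acid transporter Slc7a5 rose by 1.94 and 2.15, asparagine synthetase Asns by 1.98 in the deleted comparison, and Shmt2, a mitochondrial serine enzyme, by 1.78 in the control comparison. In the Stat3 deletion comparisons of epithelial cells, of male and of female tumours and of both sexes, no gene of these 4 lists passed.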

How the data were processed

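RNA of 18 mouse samples was measured on 1 Affymetrix platform. The deposited values are on the log2 scale, and the authors processed the arrays with RMA, per the submitters' processing notes; neither its version nor the array library is stated there. Values ranged between 1.33 and 14.6 over 35556 probe sets, and no signal over background was used, and precision is set by how many arrays a group has. Of the probe sets, 21789 had 1 symbol on the platform, 1621 several and 12146 were not listed. A gene was taken as its probe set of highest average level, and tested when above its array's 25th percentile in at least 3 arrays (17316 genes).

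Groups came from the sample titles. In limma 3.58.1 with R 4.3.3, 6 group means were fitted to all arrays with an intensity trend, so the groups shared 1 estimate of the spread. Tests were two-sided with Benjamini-Hochberg adjustment over all genes tested. The tissue comparisons set the mean of the male and female tumours against epithelial cells of the same genotype. The fit was tested on simulated data. The lists of members, further pathway genes and markers were chosen with earlier results of these data known. Every member could be named; of each further list, up to 4 genes that passed with the smallest p, or up to 2 where none passed, and of each marker list its first 4 genes. Alternatives were a quantile normalisation, equal array medians, other filters and probe set rules, no trend, array weights, a fit of the compared groups only, male tumours only, leaving out each array, and leaving out control tumour replicates 9 and 15 together; equal medians and the joint omission of replicates 3, 4 and 8 were added after seeing the data. Promoter sequences are RefSeq's, with no genome coordinates in the deposited values.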

Additional observations from a re-analysis of the deposited data

Results flagged for a closer look

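Sel1l stood out because its 3 Stat3-deleted epithelial samples, at 9.43, 9.68 and 9.64, lay below the 3 control samples, at 9.76, 9.79 and 9.99. In female tumours the 3 Stat3-deleted samples, at 9.72, 9.91 and 9.73, lay above the 3 control samples, at 9.63, 9.61 and 9.59. Neither difference passed the limma test, at -0.27 ± 0.15 in epithelial cells (adjusted p = 0.731) and 0.18 ± 0.15 in female tumours (adjusted p = 0.997). The deletion effect in tumours of both sexes minus that in epithelial cells was 0.39 (adjusted p = 0.530). The difference between epithelial cells and female tumours alone was not tested.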

How the results depend on the processing

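The Stat3 deletion comparisons of male, female and both tumours and the difference between sexes called 0 members under every alternative run. In epithelial cells the count is Kdelr3 alone, chosen on these arrays. It was 0 to 1 over the fits that left out 1 array, and 0 without replicates 3, 4 and 8 together. With array weights it was 2, which added Atf6 at -0.39 (adjusted p = 0.0441). Of the 17316 genes tested, 1134 then passed, in place of 4. With array weights the difference between tissues called 1 member, Kdelr3 again, at 0.83, where 1038 of all genes passed. Stat3-deleted tumours against epithelial cells called 13 to 22 members over the fits that left out 1 array, and control tumours against epithelial cells 6 to 19. Array weights raised the control count to 21, where 12937 of all genes passed. Tumour replicate 8 had a weight of 0.16. Quantile normalisation gave 14 higher and 4 lower members in the deleted and 11 higher and 8 lower in the control comparison. Of all genes, 4453 were then higher and 5972 lower in the deleted comparison, and 4414 and 5710 in the control comparison. Male tumours alone gave 13 higher and 2 lower members, and 5 higher and 4 lower. Their counts over all genes were 4235 higher and 5121 lower, and 4488 higher and 4586 lower. No difference that passed reversed its sign. The causes were not tested. No paired analysis was possible because the replicate numbers 1 to 18 are unique over the series. Dim genes cannot be told from background, as no detection call was used.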

Other observations

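Genes of transport between the ER and the Golgi moved in both directions between tumours and epithelial cells. Of 30 tested, 9 rose and 6 fell in the Stat3-deleted comparison, and 5 rose and 13 fell in the control comparison, with medians of 0.12 and -0.28. The cargo receptors Tmed9 and Tmed3 rose in both, by 1.43 and 1.04 in the deleted and by 1.89 and 1.07 in the control comparison. Mcfd2, a cargo receptor subunit, and Sec24a, a coat subunit, differed by -1.13 and -1.41 in the control comparison. With equal array medians the counts were 5 higher and 11 lower in the deleted, and 2 higher and 18 lower in the control comparison. Of all genes, 3758 were then higher and 8054 lower in the deleted comparison, and 3444 and 8876 in the control comparison.

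Of 15 further sensors and related transcription factors, 5 rose and 4 fell in the deleted comparison, and 7 rose and 6 fell in the control comparison, with medians of 0.01 and -0.07. Creb3l1, an ER membrane transcription factor known from collagen-secreting cells, rose by 1.33 and 1.53. The NF-Y subunit Nfyb rose by 0.84 and 0.93. Atf6b, the relative of Atf6, rose by 0.84 in the control comparison, and Creb3l2 differed by -1.11. In the Stat3 deletion comparisons no gene of these 2 lists passed. In epithelial cells, though, 29 of the 30 transport genes were lower in Stat3-deleted than in control samples in value, with a median of -0.40, against 0.00 over all genes. Of them 12 had an unadjusted p under 0.05, where 1178 of the 17316 genes tested did so. For 19 all deleted samples lay below all control samples, where 7.81% of all genes did so. The median was -0.23 after quantile normalisation and -0.24 without replicate 4, the array with the highest T and NK cell markers; their part was not tested.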
